A study of Mus musculus with 4 samples.

Results

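Genes of the spliceosome, the machinery that removes introns from pre-mRNA, were followed at their promoters in an ATAC-seq study of mouse fibroblasts lacking Kindlin-2 or Rela. ATAC-seq uses the Tn5 transposase, which inserts sequencing adapters into open chromatin, so that more fragments come from more accessible DNA. A gene was a member when its KEGG pathway identifiers in the Rela table included mmu03040, the mouse spliceosome pathway. This gave 62 genes with 66 regions among the 28445 regions of that table. Of these, 61 regions of 60 genes lay at promoters, with the region centre within 2500 bp of the transcription start, out of 8067 promoter regions in all. In the Kindlin-2 table, 14 of the same genes had 1 promoter region each, out of 2671 promoter regions and 5727 regions in all. All 61 and all 14 had a mean signal of at least 1 and were kept.

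The groups were Rela knockout and Rela wild-type cells of the 3T3 line, an established line from mouse embryo fibroblasts, and Kindlin-2 knockout and Kindlin-2 floxed fibroblasts from kidney, in which the floxed controls carry the conditional allele without its deletion. Kindlin-2, encoded by Fermt2, helps to activate integrins, and Rela encodes the p65 subunit of NF-kB. The sources used here do not say how the alleles were deleted or whether a culture was 1 clone. The design text gives 2 biological replicates per genotype, but each genotype has 1 column of values, so no comparison below has a replicate check and no p-value is given.

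Splicing proceeds through the ordered binding of small nuclear ribonucleoproteins (snRNPs) to the intron. The U1 snRNP recognises the splice donor and the U2 snRNP the branch site, after which the U4/U6.U5 tri-snRNP joins and the Prp19 complex helps to activate the assembly. SR and hnRNP proteins bind exons and introns and steer the choice of splice sites, and exon junction and TREX proteins mark the spliced RNA for export. Most of these genes are needed by every cell, and their promoters are typically rich in CpG dinucleotides.

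The values are background-corrected signal, scaled by the DESeq method within each table and rounded to whole numbers. Column sums were 1458609 in Rela knockout and 1386832 in Rela wild-type cells, and, without mitochondrial regions, 114217 in Kindlin-2 knockout and 134996 in Kindlin-2 floxed cells. With mitochondrial regions the Kindlin-2 sums were 827408 in knockout and 1655317 in floxed cells, so most of that signal was mitochondrial. In the Rela pair these regions added nothing to the sums. The Rela promoter itself had a signal of 27 in knockout and 21 in wild-type cells, which says nothing of exons farther along, and 0 regions of the Kindlin-2 table were assigned to Fermt2. Of 12 fibroblast markers 7 had a promoter region in the Rela table, and 3 of these were past 2-fold, as were 26.1% of all promoter regions. S100a4 (133 in knockout and 46 in wild-type cells) and Fbln1 (29 in knockout and 12 in wild-type cells) were higher and Dpt (8 in knockout and 23 in wild-type cells) was lower. Vim was nearly equal, with 108 in knockout and 110 in wild-type cells, while Col1a1, Col3a1, Pdgfra, Thy1 and Lum had none. In the Kindlin-2 pair Fn1 was the 1 fibroblast marker with a promoter region (12 in knockout and 26 in floxed cells). Of 8 epithelial markers 2 had a promoter region in the Rela table, with low signals of 7 to 19 in knockout and 2 to 8 in wild-type cells. Both were past 2-fold upward, as were 13.0% of all promoter regions. Of 7 leukocyte markers 2 had promoter regions there, 3 in all, with 11 to 17 in knockout and 5 to 15 in wild-type cells. Of the 3 regions 1 was past 2-fold upward, that of Csf1r 1458 bp from the start (11 in knockout and 5 in wild-type cells). For the Kindlin-2 pair, 0 epithelial and 0 leukocyte markers had a promoter region. The part of other cell types in the results was not tested.

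The promoters of 5 genes are printed as examples of regions past 2-fold in the Rela pair that cover the gene's start. Prpf38b, Dhx8, Ddx42, Tra2a and Snrpc met the same condition, and the 5 were chosen with their values known. They are shown from 250 bases before to 50 bases after the RefSeq start, 5′ to 3′ on the gene's strand (GRCm38.p6), with matches to the motifs searched in capitals. Plrg1 lies at chr3:83055288-83055587 (+), Ccdc12 at chr9:110656253-110656552 (+), Ppih at chr4:119320474-119320773 (-), Sf3b2 at chr19:5295406-5295705 (-) and Tra2b at chr16:22265956-22266255 (-).
Plrg1: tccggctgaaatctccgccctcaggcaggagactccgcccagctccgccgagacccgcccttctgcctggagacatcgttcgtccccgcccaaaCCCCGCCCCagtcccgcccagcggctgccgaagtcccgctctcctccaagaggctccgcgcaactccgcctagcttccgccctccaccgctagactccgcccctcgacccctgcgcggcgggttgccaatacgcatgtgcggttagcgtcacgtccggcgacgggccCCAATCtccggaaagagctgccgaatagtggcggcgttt
Ccdc12: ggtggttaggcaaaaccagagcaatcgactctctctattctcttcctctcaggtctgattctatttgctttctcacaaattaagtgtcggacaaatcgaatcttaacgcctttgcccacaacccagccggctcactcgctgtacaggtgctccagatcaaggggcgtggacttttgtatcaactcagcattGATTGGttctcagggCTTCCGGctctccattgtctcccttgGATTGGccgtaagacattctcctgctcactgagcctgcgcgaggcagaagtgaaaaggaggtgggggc
Ppih: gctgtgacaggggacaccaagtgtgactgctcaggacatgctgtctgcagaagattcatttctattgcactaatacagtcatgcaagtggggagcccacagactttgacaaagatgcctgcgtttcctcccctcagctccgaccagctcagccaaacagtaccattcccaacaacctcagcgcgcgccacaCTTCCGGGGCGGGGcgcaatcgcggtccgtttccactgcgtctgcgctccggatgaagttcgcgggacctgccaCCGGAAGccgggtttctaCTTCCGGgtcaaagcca
Sf3b2: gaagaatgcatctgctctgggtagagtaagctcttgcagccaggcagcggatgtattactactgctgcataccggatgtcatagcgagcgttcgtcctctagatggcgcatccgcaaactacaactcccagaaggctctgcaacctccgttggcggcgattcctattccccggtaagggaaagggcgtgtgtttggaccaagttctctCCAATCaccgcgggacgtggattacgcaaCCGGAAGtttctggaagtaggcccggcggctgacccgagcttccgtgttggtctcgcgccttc
Tra2b: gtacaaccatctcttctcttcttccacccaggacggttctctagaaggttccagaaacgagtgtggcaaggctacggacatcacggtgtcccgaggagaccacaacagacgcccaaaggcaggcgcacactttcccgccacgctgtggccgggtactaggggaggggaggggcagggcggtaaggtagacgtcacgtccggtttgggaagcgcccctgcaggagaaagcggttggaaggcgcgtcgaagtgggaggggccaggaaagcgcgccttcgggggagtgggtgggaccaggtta
The ETS motif CCGGAAG was found 3 times in the Ppih promoter, once upstream of the start, where it overlaps a match to the SP motif GGGGCGGGG, and in 2 places after the start. Ccdc12 and Sf3b2 each held 1 ETS match, 38 and 7 bases before the start. The NF-Y motif CCAATC was found in 2 places in Ccdc12 and once each in Sf3b2 and Plrg1. Plrg1 also held an SP match, 148 bases before the start. The Tra2b window held none of the motifs searched.

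The Rela comparison asked how accessibility differs between 3T3 fibroblasts without and with p65. Most spliceosome promoters held similar signal in both genotypes: 49 of 61 were within 2-fold, 4 had 2-fold or more signal in the knockout (U2af2, Plrg1, Prpf38b and Dhx8) and 8 had 2-fold or more in the wild type (Ccdc12, Hnrnpm, Ppih, Sf3b2, Tra2b, Snrpc, Tra2a and Ddx42). These calls are read from log2((knockout + 1)/(wild type + 1)), and 1 on this scale is the 2-fold limit. Folds printed with an interval below are ratios of the signals themselves, without the added 1. Of all 8061 promoter regions tested, 13.0% were 2-fold or more higher in the knockout and 13.1% lower by as much. The spliceosome shares were 6.56% higher and 13.1% lower. Taken both ways, 19.7% of spliceosome promoters were past 2-fold, against 26.1% of all promoters and 22.1% of the 2537 promoter regions of genes with any KEGG pathway, so the share of called members was near the background. The median log2 ratio was 0.17 for the spliceosome and -0.03 for all promoters. For the 31 members whose mean signal lay within the quartiles of the members' means it was -0.17. It was -0.04 for the 2930 promoter regions in the same range. The spread of the ratios was 0.78 (SD over 61 regions) for the spliceosome, 1.18 for all promoters and 1.07 for genes with any KEGG pathway.

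**Figure D1:**
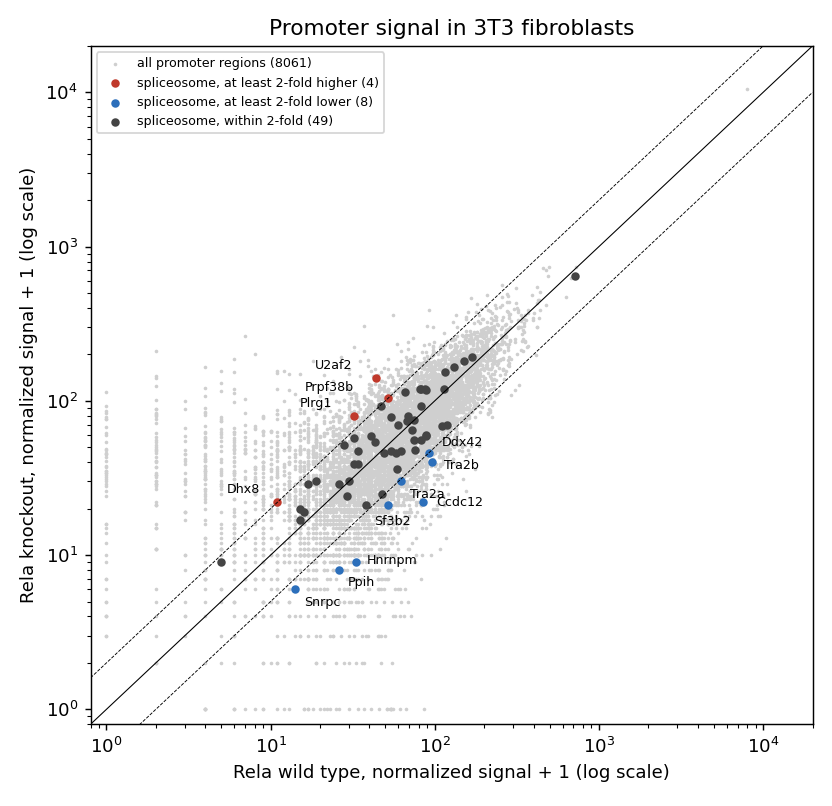
Normalized signal + 1 of each promoter region in Rela knockout cells (vertical) against Rela wild-type cells (horizontal), both on log scales; small grey points are all 8061 promoter regions, large points the 61 spliceosome regions (red higher, blue lower, dark within 2-fold), the solid line equal signal and the dashed lines 2-fold. Of the spliceosome regions 49 lie between the dashed lines, 4 on or above the upper one and 8 on or below the lower one.

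In level the members were ordinary promoters. Signals ran from 5 to 645, with a median of 53, in knockout cells and from 4 to 712, with a median of 57, in wild-type cells, against a median of 52 for all promoters in each genotype. The strongest was Alyref2, an mRNA export adaptor gene, with 645 in knockout and 712 in wild-type cells. Hspa8, which encodes a constitutive heat shock chaperone, followed with 191 in knockout and 167 in wild-type cells. The weakest was Sf3a1, a U2 snRNP subunit gene, with 8 in knockout and 4 in wild-type cells. Its region lay 964 bp from the start and did not cover it.

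The counts by group below stand beside 13.0% of all promoter regions higher and 13.1% lower. Among U2 snRNP and branch site genes, 1 of 10 regions was higher, 2 were lower and 7 were within 2-fold. U2af2 encodes the large subunit of the U2 auxiliary factor, which binds the polypyrimidine tract, and its region had the highest ratio of all promoter members. It held 140 in Rela knockout and 43 in Rela wild-type cells, a 3.26-fold difference with a 95% interval of 2.41 to 4.46. Intervals are exact Clopper-Pearson intervals of the ratio from the counts that the rounding of the values implies, and cover counting error only, not differences between cultures. The U2af2 region (ENSMUSG00000030435, chromosome 7, 5060241 to 5061792, mm10) is 1551 bp wide and centred 1126 bp from the start, which it does not cover. The partner gene U2af1, whose product binds the AG at the intron end, differed the other way, with 35 in knockout and 58 in wild-type cells (log2 ratio -0.71), within 2-fold. Sf3b2, a subunit of the SF3b complex at the branch site, was 2.55-fold lower, with 20 in knockout and 51 in wild-type cells (interval 1.57 to 4.39). Ddx42, an SF3b-associated helicase gene, held 45 in knockout and 91 in wild-type cells and lay exactly on the limit (log2 ratio -1). Sf3a3 was equal, with 29 in each genotype, and Cherp and Sf3b6 had log2 ratios of 0.46 and 0.47.

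In the U4/U6.U5 tri-snRNP group, 1 of 7 regions was higher, 1 was lower and 6 of 7 had a log2 ratio above 0 (5 of 7 were above the median of their own chromosome). Ppih, a cyclophilin of the U4/U6 snRNP, was the exception, with 7 in knockout and 25 in wild-type cells, a 3.57-fold difference (interval 1.67 to 10.1). Prpf38b held 103 in knockout and 51 in wild-type cells, exactly 2-fold with the pseudocount (log2 ratio 1, interval of the ratio 1.49 to 2.75). Prpf8, the scaffold of the catalytic centre, had 56 in knockout and 31 in wild-type cells (log2 ratio 0.83) and was within 2-fold. Prpf4, Wbp11, Prpf38a and Zmat2 had log2 ratios of 0.17 to 0.77.

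Of the 10 regions of the Prp19 complex and its associates, 1 was higher, 0 were lower and 9 had a log2 ratio above 0, as did 47.6% of all promoter regions. Relative to the median of their own chromosome 6 of 10 were above 0. Plrg1, a core subunit, held 79 in knockout and 31 in wild-type cells, 2.55-fold more (interval 1.76 to 3.77), at chromosome 3, 83055106 to 83055634. This is the region over the CpG-rich promoter printed above, and its call was lost with chromosomes centred (log2 ratio 0.80). Prpf19, the ubiquitin ligase that names the complex, had 79 in knockout and 68 in wild-type cells and its partner Cdc5l had 38 in knockout and 33 in wild-type cells. Snw1, a coactivator that also joins the active spliceosome, came closest to the limit among the others, with 51 in knockout and 27 in wild-type cells (log2 ratio 0.89). The pathway also counts heat shock protein genes here, of which Hspa2 (119 in knockout and 113 in wild-type cells) and Hspa8 were nearly equal and Hspa1b had 69 in knockout and 118 in wild-type cells. Hspa1b has a near-identical neighbour in Hspa1a, so reads may be split between these copies.

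Among catalytic-step factors and DEAH helicases, 1 of 6 was higher. This was Dhx8, whose helicase releases spliced mRNA, with 21 in knockout and 10 in wild-type cells (log2 ratio 1, interval of the ratio 1.01 to 4.22). Dhx38, a helicase that prepares the second catalytic step, had 113 in knockout and 65 in wild-type cells (log2 ratio 0.79). Dhx15 and Dhx16 had ratios of -0.42 and -0.40. For U1 snRNP genes, 1 of 6 was lower: Snrpc, which encodes a U1-specific protein, with 5 in knockout and 13 in wild-type cells. This was the 1 called member whose interval included equality (0.988 to 9.37 for the fold by which it was lower). Snrpa, for another U1-specific protein, had 74 in each genotype, and Ddx5 had 117 in knockout and 87 in wild-type cells.

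All 6 regions of Sm and LSm genes, whose ring-shaped complexes form the core of each snRNP, were within 2-fold. Here the Sm genes Snrpe (20 in knockout and 37 in wild-type cells) and Snrpd3 (55 in knockout and 81 in wild-type cells) had log2 ratios of -0.86 and -0.55, while 3 of 4 LSm genes, Lsm5, Lsm6 and Lsm8, had ratios of 0.29 to 0.55 and Lsm4 had -0.33. All 5 regions of exon junction, TREX and cap-binding genes were also within 2-fold, while 26.1% of all promoter regions were past it. Ddx39b, a TREX helicase gene, had 2 of them: the region over its start held 46 in knockout and 53 in wild-type cells, and a second 972 bp away held 24 in knockout and 47 in wild-type cells (log2 ratio -0.94).

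SR and Tra2 genes had 2 of 6 regions lower and 0 higher, where 13.1% of all promoter regions were lower and 13.0% higher. Both lower ones were Tra2 genes, whose proteins bind purine-rich exonic enhancers. Tra2b held 39 in knockout and 95 in wild-type cells, 2.44-fold lower (interval 1.71 to 3.55), and Tra2a held 29 in knockout and 61 in wild-type cells, 2.10-fold lower (interval 1.36 to 3.22). The Tra2a call was lost with a pseudocount of 5 (log2 ratio -0.96) and with chromosomes centred (-0.85), whereas Tra2b kept its call under both. The 4 SR genes were within 2-fold: Srsf1 had 29 in knockout and 18 in wild-type cells, Srsf6 had 153 in knockout and 115 in wild-type cells, and Srsf3 and Srsf7 had log2 ratios of -0.27 and -0.58. Of 4 hnRNP regions, 1 was lower. Hnrnpm held 8 in knockout and 32 in wild-type cells, 4.0-fold lower (interval 1.98 to 10.4). Its region is centred 1331 bp from the deposited start but covers 261 bases of the RefSeq promoter window. Rbmx, on chromosome X, had 92 in knockout and 46 in wild-type cells and lay just inside the limit once the pseudocount was added (log2 ratio 0.98).

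Ccdc12, a component of the activated spliceosome that falls in none of these groups, had the lowest ratio of all promoter members. Its region (ENSMUSG00000019659, chromosome 9, 110656335 to 110656898) held 21 in knockout and 84 in wild-type cells, 4.0-fold lower (interval 2.54 to 6.65). Ccdc12 and U2af2 were the 2 of 61 members, or 3.28%, whose counting interval lay wholly beyond 2-fold, against 10.3% of all promoter regions. For 29 of 61 members the interval included equality. The median member signal rested on about 55.8 implied counts in knockout and 83.5 in wild-type cells.

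**Figure D2:**
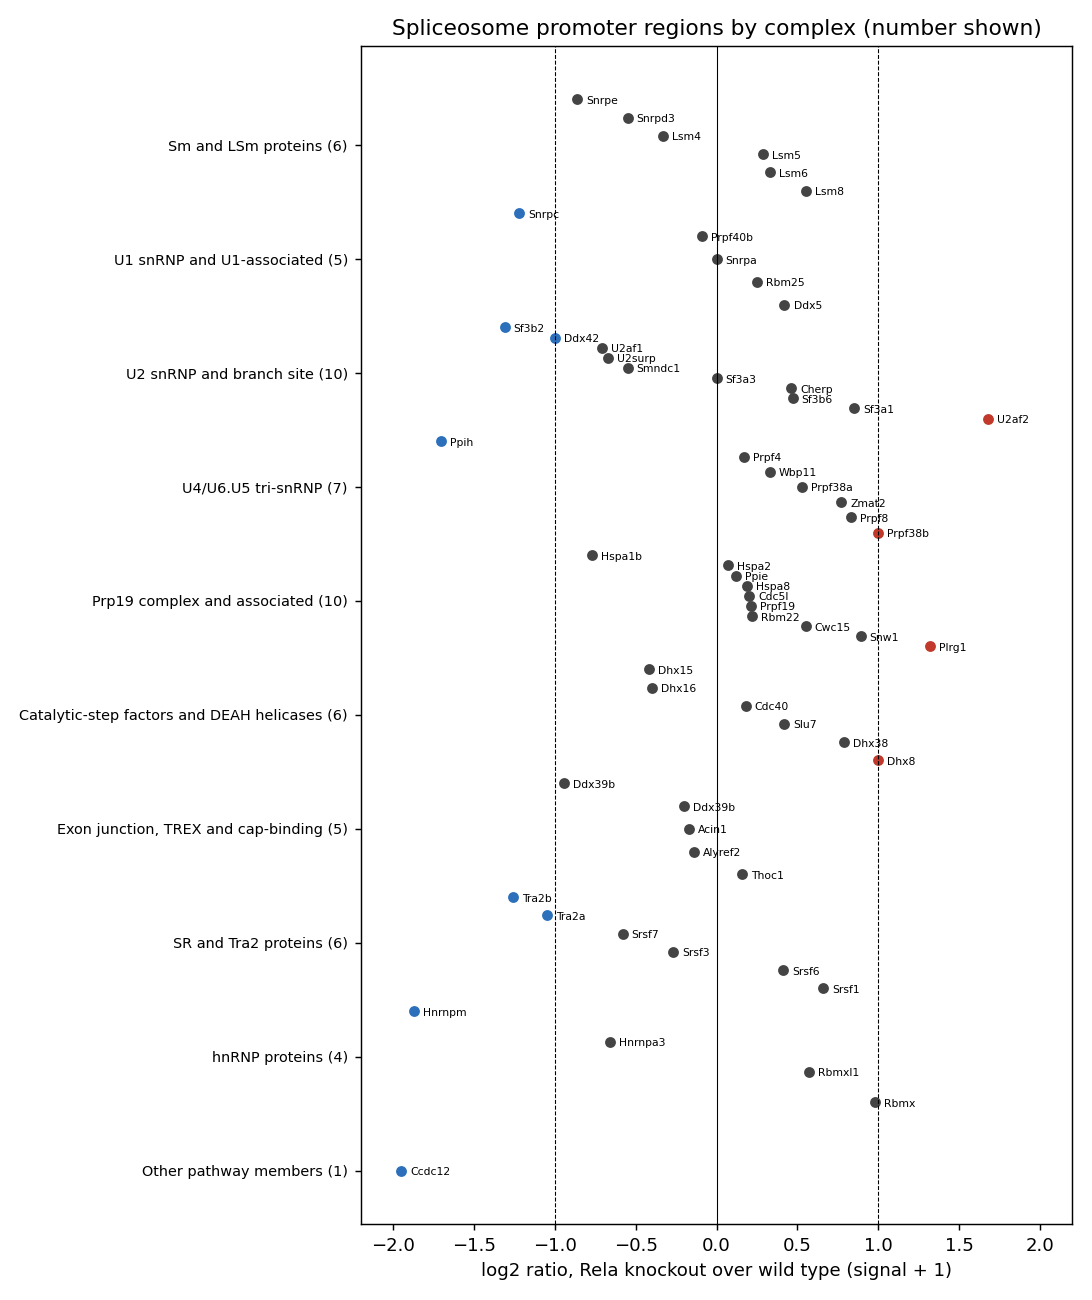
The log2 ratio (Rela knockout over wild type, signal + 1) of 60 of the 61 spliceosome promoter regions, by complex; red points are at least 2-fold higher, blue at least 2-fold lower, and dashed lines mark 2-fold. Ccdc12 and Hnrnpm lie farthest left, with log2 ratios of -1.95 and -1.87, and U2af2 farthest right, with 1.68.

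Outside the promoter window, 5 regions belonged to members. The nearest to the limit was a second U2surp region 2536 bp from the start, with 35 in knockout and 40 in wild-type cells, and the farthest region inside it was that of Cdc40 at 2185 bp, with 16 in knockout and 14 in wild-type cells. Snrpb2 and Sf3b5, which encode U2 snRNP proteins, had regions only at 3027 and 3054 bp. The Snrpb2 region held 4 in knockout and 51 in wild-type cells, 12.8-fold lower (interval 5.06 to 50.8), and the Sf3b5 region held 15 in knockout and 46 in wild-type cells, 3.07-fold lower (1.73 to 5.57). A distal Smndc1 region at 4371 bp was also lower, with 11 in knockout and 45 in wild-type cells (4.09-fold, 2.12 to 8.05), whereas the Smndc1 promoter was within 2-fold, with 59 in knockout and 87 in wild-type cells. A distal Sf3a1 region at 4532 bp held 5 in knockout and 0 in wild-type cells, with a lower limit of 1.27 for the ratio. Of the 5 regions, 1 was thus past 2-fold upward and 3 downward, where 22.4% of all 28332 regions tested were higher and 21.0% lower (43.3% in all). The assignment of such regions to these genes rests on distance alone.

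The direction of the members varied with the chromosome. On chromosome 17, 9 of 10 spliceosome regions had a log2 ratio below 0, from -1.87 (Hnrnpm) to 0.20 (Cdc5l). On chromosomes 12 and 18, 4 of 4 regions each were above 0, and on chromosome 11, 6 of 7 were. The median of all promoter regions also differed between chromosomes, being -0.49 over 433 regions on chromosome 17, 0.18 over 533 on chromosome 11, 0.27 over 222 on chromosome 18 and 0.62 over 554 on chromosome 8. It was close to 0 on chromosome 12 (0.06 over 230 regions). On chromosomes 6 and 19 the members lay on the other side of 0, with medians of 0.31 (4 regions) and -0.55 (3 regions), against -0.20 and 0.22 for all promoter regions. The range over chromosomes was -0.68 (chromosome 13) to 0.62 (chromosome 8). Relative to the median of their own chromosome, 31 members were above and 30 below, the members' median became 0.01, and their SD was 0.69, against 0.78 without centring. After centring, 1 member stayed past 2-fold upward (U2af2, 1.44) and 6 downward (Ppih, -1.91; Ccdc12, -1.73; Sf3b2, -1.53; Hnrnpm, -1.38; Tra2b, -1.27; Ddx42, -1.18). The other 5 called regions were within 2-fold: Dhx8 (0.82), Tra2a (-0.85), Snrpc (-0.73), and Plrg1 and Prpf38b (0.80 and 0.48), which both lie on chromosome 3, whose median was 0.52.

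**Figure D3:**
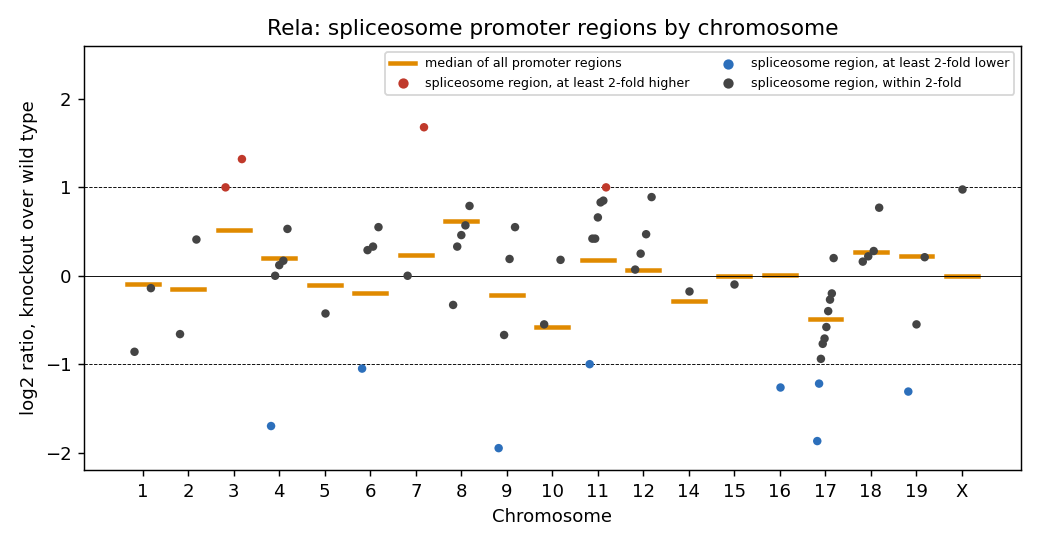
The log2 ratio of each spliceosome promoter region (points, Rela knockout over wild type) by chromosome, with the median of all promoter regions of that chromosome as an orange bar; dashed lines mark 2-fold. The chromosome 17 points lie mostly below 0, around a chromosome median of -0.49. Those of chromosome 8 lie mostly above 0, but 4 of 5 are below the chromosome median of 0.62.

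The Kindlin-2 comparison asked the same of kidney fibroblasts without and with Kindlin-2. None of the 14 spliceosome promoters was past 2-fold in either direction, while 19.6% of all 2671 promoter regions were (9.06% higher and 10.6% lower in the knockout). Among the 2177 promoter regions of genes that, like these 14, had a Rela promoter region, 18.4% were. Spliceosome genes found among the Kindlin-2 regions alone are outside this count and come at the end of the Results. Log2 ratios ran from -0.87 to 0.68, 7 above and 7 below 0, with a median of -0.01, against -0.15 for all promoters. The median signal was low, 18 in knockout and 21 in floxed cells. The knockout column showed no single scaling factor, so its depth is unknown and no intervals are given.

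The strongest was again Alyref2, with 81 in Kindlin-2 knockout and 107 in Kindlin-2 floxed cells. Wbp11, a tri-snRNP-associated gene, had 35 in knockout and 37 in floxed cells. The lowest ratio was that of Lsm8, a subunit of the LSm ring on U6 RNA, with 16 in knockout and 30 in floxed cells, followed by Prpf4, a U4/U6 protein gene, with 16 in knockout and 26 in floxed cells. The highest was that of Acin1, which encodes the apoptosis and splicing associated factor acinus, with 7 in knockout and 4 in floxed cells, the weakest region of the 14. Thoc1, a TREX subunit gene, had 12 in knockout and 8 in floxed cells, and Prpf38b had 21 in knockout and 15 in floxed cells. Hspa2 (21 in knockout and 20 in floxed cells), Ddx5 (20 in knockout and 22 in floxed cells) and Srsf6 (13 in knockout and 14 in floxed cells) were nearly equal.

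**Figure D4:**
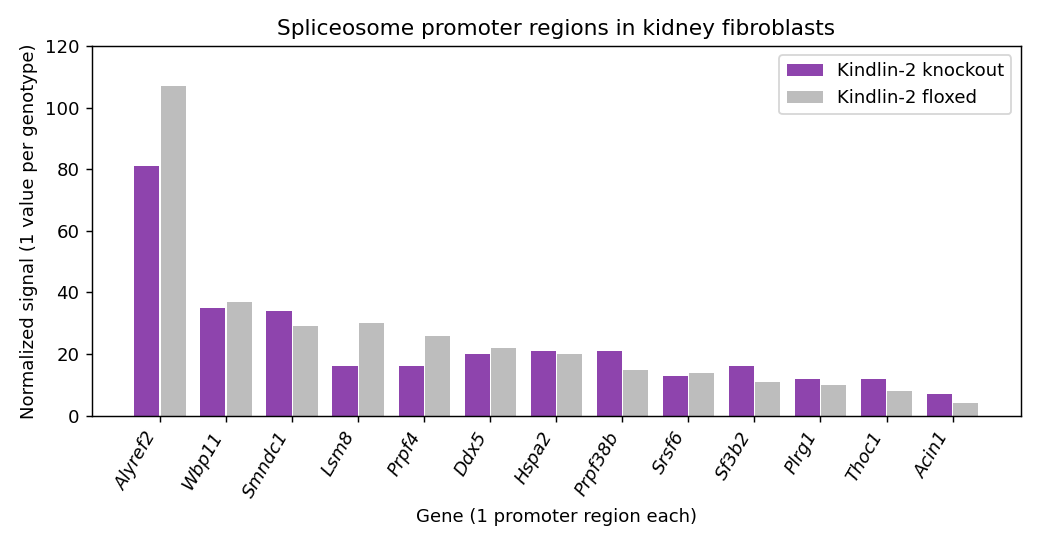
Normalized signal of 13 of the 14 spliceosome promoter regions in Kindlin-2 knockout (purple) and Kindlin-2 floxed (grey) kidney fibroblasts, 1 value per genotype, in order of mean signal. Alyref2 stands highest, with 81 in knockout and 107 in floxed cells, and no pair of bars differs by 2-fold.

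A few genes past 2-fold in the Rela pair were measured in the Kindlin-2 pair. Plrg1, higher without Rela, had 12 in Kindlin-2 knockout and 10 in floxed cells. Prpf38b, also higher without Rela, had a log2 ratio of 0.46 there. Sf3b2, lower without Rela, had 16 in Kindlin-2 knockout and 11 in floxed cells (log2 ratio 0.50). The difference between the Rela and Kindlin-2 ratios was not tested, since each rests on 1 value per genotype.

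Which spliceosome genes appeared in the smaller Kindlin-2 table went with their level in the Rela table. Of 60 genes 14, or 23.3%, had a promoter region there, against 32.3% of all 6588 named genes with a Rela promoter region and 33.0% of the 2430 with any KEGG pathway. Among promoters with a Rela wild-type signal of 96.0 or more, 5 of 8 spliceosome genes did (62.5%), against 60.6% of all genes. Below it 9 of 52 did (17.3%), against 22.8%. The 14 genes had median Rela signals of 110 in knockout and 84.0 in wild-type cells, and the other 47 regions 46.0 in knockout and 48.0 in wild-type cells. Each of the 14 Kindlin-2 regions overlapped the Rela region of the same gene, by at least 85.4% of its length, and 12 lay wholly inside it. The Kindlin-2 regions were narrower, with a median of 306 bp, against 699 bp for the same genes in the Rela table. All promoter regions differed the same way, with medians of 272 bp in the Kindlin-2 table and 512 bp in the Rela table.

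The members shared a position close to the start. Of their 61 Rela regions 51 (83.6%) were centred within 250 bp of it, against 60.7% of all promoter regions, and 53 covered it. Other annotated genes also lay closer than promoters in general. The median distance was 111 bp for members, 137 bp for protein-coding genes, 141 bp for genes with any KEGG pathway and 165 bp for all promoter regions. The width of the member regions was ordinary, with a median of 528 bp (169 to 2789), against 512 bp for all promoters. For 14 of 61 regions another RefSeq gene started within 1000 bp of the region's centre, such as Cep95 beside Ddx5, Cdc26 beside Prpf4, Txnl4b beside Dhx38 and Ccdc47 beside Ddx42, so that their signal cannot be assigned to the spliceosome gene alone. This count is a minimum, because the list of starts searched was incomplete and held 49 of the 60 spliceosome genes themselves.

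In sequence the members were CpG-rich. RefSeq promoters were found for 49 of the 60 genes, and 91.8% of them had a ratio of observed to expected CpG over 0.6, a usual mark of CpG islands, against 77.2% of 5055 named genes with a Rela promoter region and 36.4% of 27025 genes of the promoter table. Their median ratio was 0.896, against 0.786 for the 5055, although their GC content was lower (median 59.0%, against 62.0%). The exceptions were Acin1, Ccdc12 and Hspa1b, with ratios of 0.596, 0.558 and 0.577, and Rbm25, whose window held 0 CpG and was not overlapped by its region, 921 bp from the start.

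The motif of the ETS family, CCGGAAG on either strand, was in 19 of 49 spliceosome promoters (38.8%), against 19.2% of the 5055 and 9.12% of all genes. The NF-Y motif CCAATC was in 40.8%, against 25.6% and 16.6%. The SP motif GGGGCGGGG went the other way, with 12.2%, against 24.9% of the 5055 and 11.6% of all genes. Matches to AAGATGGCG, of the YY1 motif, were in 6.12% of spliceosome promoters and 2.93% of the 5055. Those to GCGCNTGCG, of the NRF1 motif, were in 12.2% and 13.7%, but in 6.12% and 10.3% when 1 more letter, a C, was required. Matches were found to TGACGTCA, bound by CREB, in 6.12% and 3.64%, and to the TATA motif TATAAA in 12.2% and 6.69%. Over all genes the shares were 1.49% for AAGATGGCG, 6.59% for GCGCNTGCG and 1.88% for TGACGTCA. For TATAAA the share over all genes was 14.2%, above that of the spliceosome promoters. A kappaB motif, GGGANTTTC, as bound by NF-kB, was in 0 of 49 and in 1.01% of the 5055. These letters were thus rare in such windows, and other kappaB spellings were not searched. The ETS and SP motifs can overlap, as in Ppih. None of these shares was tested.

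**Figure D5:**
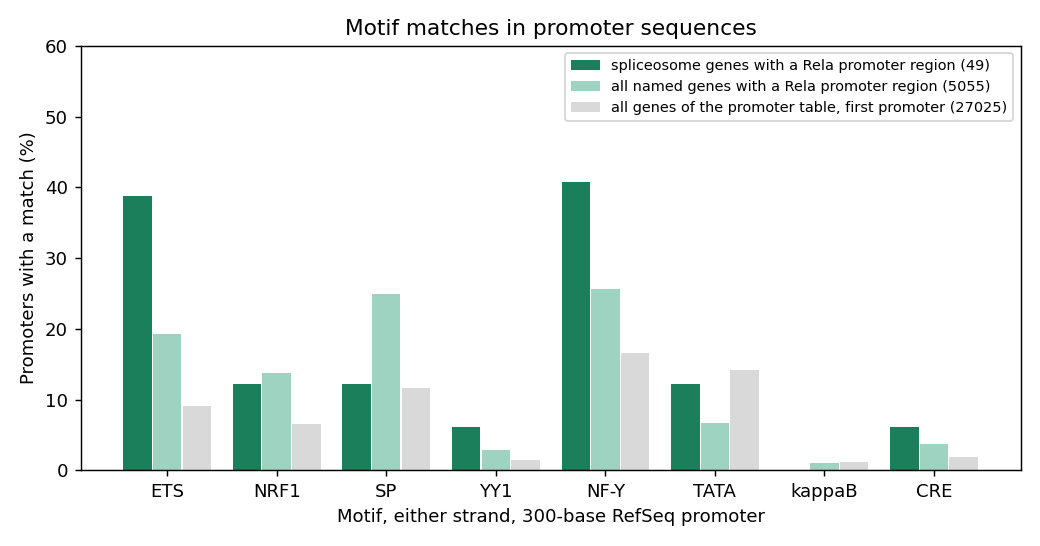
Share of 300-base RefSeq promoters with at least 1 match to each motif on either strand, for spliceosome genes with a Rela promoter region (dark green), all named genes with one (light green) and all genes of the promoter table (grey). ETS and NF-Y matches are in 38.8% and 40.8% of spliceosome promoters, and kappaB matches in 0.

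Related genes outside the pathway list were also mixed in the Rela pair. Of 7 promoter regions of snRNP assembly genes, 1 was higher and 2 were lower, where 26.1% of all promoter regions were past 2-fold. Coil, which encodes the Cajal body protein coilin, had 23 in knockout and 101 in wild-type cells, Snupn, the import adaptor for snRNPs, had 29 in knockout and 79 in wild-type cells, and Gemin8, of the SMN complex, had 63 in knockout and 23 in wild-type cells. Of 5 regions of the minor, U12-type spliceosome, 1 was higher and 2 were lower, led by Snrnp48, with 3 in knockout and 64 in wild-type cells. Zrsr2, which recognises the end of U12-type introns, had 113 in knockout and 39 in wild-type cells. Of 15 regions of splicing regulators and kinases, 2 were higher and 0 lower, both of genes best known from neurons: Nova1 had 54 in knockout and 2 in wild-type cells and Ptbp2 had 42 in knockout and 16 in wild-type cells. The list medians were -0.08, -0.08 and 0.01, beside -0.03 for all promoters. In the Kindlin-2 pair 0 of 8 such regions were past 2-fold, against 19.6% of all promoter regions, and Nova1 had 13 in knockout and 15 in floxed cells there.

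Of 133 genes listed by role as spliceosome components, 62 appeared among the Rela regions, 1 of them, Luc7l, without the pathway identifier (14 in knockout and 33 in wild-type cells). Another 4 were found among the Kindlin-2 regions alone. Of these, Syf2, of the Prp19-associated group, had 9 in knockout and 0 in floxed cells, and Rbm17 had 14 in knockout and 5 in floxed cells. Both were past 2-fold upward, as were 9.06% of all Kindlin-2 promoter regions. Srsf2, with 5 in knockout and 3 in floxed cells, was within 2-fold.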

How the data were processed

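Per the labels' protocols, 50000 cells entered each ATAC-seq library. The submitters' processing notes name, without role or order, the aligner STAR 2.4.2a, Trimmomatic 0.33 and FastQC for reads, MACS2 for peaks, Picard 1.136, bedtools, deepTools and DESeq2, and the build mm10. No source used here states Tn5 shifting, duplicate handling or how 2 replicates became 1 column. Each knockout has 1 table deposited by the authors, whose values are a score (background-corrected signal normalized by the DESeq method, rounded), not counts. The deposited fraction of a region inside the gene body was not used.

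Tables were analysed separately with pandas 2.3.3, numpy 2.4.6 and scipy 1.17.1. Regions with a mean of at least 1 were kept. Log2 ratios used a pseudocount of 1, which understates changes of weak regions, and a call meant at least 2-fold on that scale. Folds and their intervals used no pseudocount. With 1 value per genotype, no test was possible. Rounding patterns gave scaling factors of 0.949 (Rela knockout), 0.683 (Rela wild type) and 1.361 (Kindlin-2 floxed), explaining 90.8%, 97.8% and 98.8% of the deviance of low values; for Kindlin-2 knockout the best explained 46.3%, so it was not used. Factors, calls and intervals were tried on simulated Poisson counts, scaled and rounded, which is the model that the intervals assume. Such data cannot show that the deposited values follow this model. Members and lists were chosen with earlier results of these data known. Named regions were all member regions past 2-fold, the 3 strongest per table, a fixed set of core components, and up to 3 genes per related list; other members stand as examples of their group, chosen after their values were seen. Promoter sequences and neighbouring starts came from RefSeq (GRCm38.p6), matched by symbol; the NRF1, YY1 and kappaB motifs were first searched with 10 letters and shortened to 9 after those shares were seen. The alternatives tried were a pseudocount of 5, a minimum mean of 10, chromosome centring on promoter medians, quantile scaling, a 1000 bp window, a 1.5-fold limit and the region nearest the start per gene. Values of 2 genes are not reported here.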

Additional observations from a re-analysis of the deposited data

How the results depend on the processing

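No paired analysis was possible because each genotype has 1 column, and for the same reason no replicate could be left out. In the Rela pair the 4 higher and 8 lower spliceosome promoters became 2 and 5 with a pseudocount of 5, 1 and 6 with chromosomes centred, 2 and 9 after quantile scaling, and 11 and 14 at a 1.5-fold limit. Of the 12 called regions, 7 kept their call with a pseudocount of 5 (Prpf38b, Dhx8, Tra2a, Snrpc and Ddx42 lost it), 7 with chromosomes centred (Plrg1 lost it, and Prpf38b, Dhx8, Tra2a and Snrpc again), and 10 after quantile scaling (Prpf38b and Dhx8 lost it, and a Ddx39b region was added). Higher regions were 33.3% of the called ones as deposited, 14.3% with chromosomes centred and 18.2% after quantile scaling. Dhx8, Prpf38b and Ddx42 sit exactly on the 2-fold limit. A minimum mean of 10 gave 4 and 7, and a 1000 bp window 3 and 7. The median log2 ratio of 0.17 became 0.01 with chromosomes centred and lay between 0.10 and 0.17 under the other settings. In the Kindlin-2 pair the counts of 0 stayed 0 with chromosomes centred and after quantile scaling, and became 1 higher and 2 lower at 1.5-fold. A larger pseudocount, a higher minimum mean or a narrower window could not have added a call there. The Kindlin-2 median of -0.01 became 0.18 after quantile scaling. Taking the region nearest the start could change no count of genes, because only Ddx39b had 2 promoter regions and both were within 2-fold. Among the called regions tested, 0 changed sign after quantile scaling. The other settings could not have changed the sign of a called ratio. Most leave the sign as it is, and the chromosome medians subtracted in centring, -0.68 to 0.62, are smaller than any called ratio. Regions with signals under about 10, such as Snrpc and Sf3a1, are limited by depth.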
